A study of Mus musculus with 4 samples.

Results

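The diet comparison after macrophage depletion set the liver of mice on a high-fat diet against that of mice on a low-fat diet, where both groups had been injected with clodronate liposomes. Its members were all probe sets that carry exactly 1 gene symbol, 34958 of the 45101 on the array, which stand for 18194 genes. Of these genes 8478 could be measured, because at least 1 of both clodronate arrays gave a level of 4 or more on the log2 scale of the deposited values. Lower levels were too dim to measure and were taken as 4. A difference against such a level is a bound and is written as "at least".

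Male C57BL/6J mice, for which the labels name no genotype beyond the strain, started the diets at 8 to 12 weeks of age. For 20 weeks they received 10% of their energy as fat (low-fat) or 45% (high-fat), and palm oil took the place of lard in both diets. In the last week each mouse of the pair described here had 2 intraperitoneal injections of clodronate liposomes, which kill phagocytes that swallow them, and the other 2 groups had saline (PBS) in their place. RNA of 8 livers (low-fat) or 10 livers (high-fat) was pooled in equal amounts and read on 1 Affymetrix array a group, with PBS pools of the same sizes. The injected control was saline and not empty liposomes, so what the liposome does, what clodronate does and what losing macrophages does cannot be told apart. The series asked what Kupffer cells, the macrophages that reside in the liver, do in steatosis, and whether they act by interleukin-1β on the nuclear receptor PPARα. The diet pair with clodronate sets the high-fat pool beside the low-fat pool when these cells are depleted. A group was 1 pooled array, so no difference below has a replicate check, no p-value was computed, and variation from mouse to mouse is unknown.

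Liver cells make fatty acids from sugar under the transcription factors SREBP1c and ChREBP, and burn them in mitochondria and peroxisomes under PPARα. Growth hormone reaches hepatocytes through its receptor, JAK2 and STAT5, and STAT5 switches on both secreted factors and its own feedback inhibitors. The liver also carries a circadian clock, in which CLOCK and BMAL1 switch on period, cryptochrome and output genes through E-boxes, and feeding sets its phase. These pathways order the account below.

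Both pools gave the picture of liver with few macrophages. All 11 hepatocyte markers with a probe set, such as Alb (14.51 low-fat, 14.50 high-fat), were at 9.79 or more on both clodronate arrays, and their differences ran from -0.20 to 0.15. Of 12 Kupffer cell markers, 5 (low-fat) and 6 (high-fat) reached 4 with clodronate, against 12 and 10 with PBS. The defining receptors were below 4 in both clodronate pools, with Clec4f at 1.92 and 1.88, Vsig4 at 2.31 and 2.35, and Timd4, Marco, Cd163 and Folr2 also under 4. The summed level of the 12 markers, as log2 of the sum of linear values, was 11.81 and 11.51 with clodronate and 12.99 and 12.89 with PBS. Most of it with clodronate lay in Slc40a1, C6 and Id3, which other liver cells also express. The 15 pan-macrophage markers summed to 10.09 and 10.12 with clodronate and to 12.57 and 12.46 with PBS, with 9 and 8 of them at 4 or more in the clodronate pools. In pooled tissue, fewer cells of a type and less RNA per cell cannot be told apart.

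The depleted pools were not equal in all macrophage transcripts. C1qb, a chain of complement C1q, was at 4.04 in the low-fat and 6.02 in the high-fat clodronate pool, 3.93-fold higher, and its other 2 probe sets were higher by 1.74 and by at least 1.10. Cd5l, a secreted macrophage protein, was at 3.38 and 5.82, at least 3.54-fold higher. With PBS the same genes were at 9.86 and 9.96 and at 10.71 and 10.64, so both depleted pools lay far under both PBS pools. Ctss, cathepsin S, was higher as well (7.22 and 7.87), whereas Lyz2 (8.12 and 7.80), Mpeg1 (8.80 and 8.59) and Tyrobp (5.42 and 5.10) were lower. C1qa and C1qc, the partner chains of C1qb, were below 4 in both pools. The median difference was -0.21 over the 6 measurable Kupffer cell markers and -0.07 over the 9 measurable pan-macrophage markers, where it turned to 0.02 after centring and 0.10 after quantile normalization. The part of these markers in the results below was not tested. Markers of T and NK cells, cholangiocytes and exocrine pancreas were not measurable, and the 15 endothelial markers had a median of -0.13 and the 12 stellate cell markers one of -0.07.

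**Figure D1:**
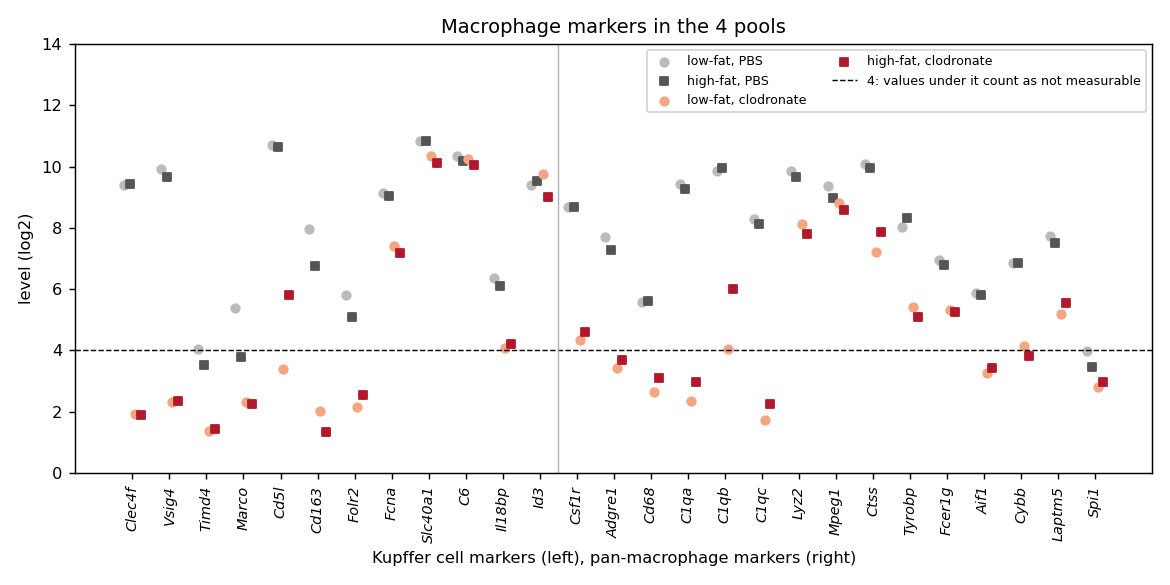
Level (log2) of 12 Kupffer cell markers (left) and 15 pan-macrophage markers (right) in the 4 pools, 1 array a symbol, with circles for the low-fat and squares for the high-fat diet, grey for PBS and red tones for clodronate. The dashed line is the level of 4 under which values count as not measurable; Clec4f and Vsig4 lie under it in both clodronate pools, and C1qb and Cd5l are the members with the widest gap between the diets there.

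Across all genes, lower values in the high-fat pool outnumbered higher ones. With clodronate, 31 of 8478 genes (0.366%) stood 2-fold or more above the low-fat pool, and 64 (0.755%) stood 2-fold or more below it. At 1.5-fold or more the numbers were 146 higher (1.72%) and 414 lower (4.88%), and these shares are the background for every gene group below. The whole distribution was shifted, with a median difference of -0.09 and 66.2% of genes below 0, whereas the PBS pair had a median of 0.00 and 49.7% below 0. The median was -0.14 for genes with a mean level from 5 to 6 and -0.04 for genes at 10 or more. The quartiles of the differences between measured genes were -0.25 and 0.05 with clodronate. Rescaling moved the split between the directions: centring each array on its median left 39 higher and 42 lower genes, and quantile normalization left 43 and 40. All 31 higher genes were still past 2-fold under both, but 42 and 40 of the 64 lower genes were. Differences below are to be read against -0.09, and counts of members above or below 0 against 33.8% and 66.2% of all genes.

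**Figure D2:**
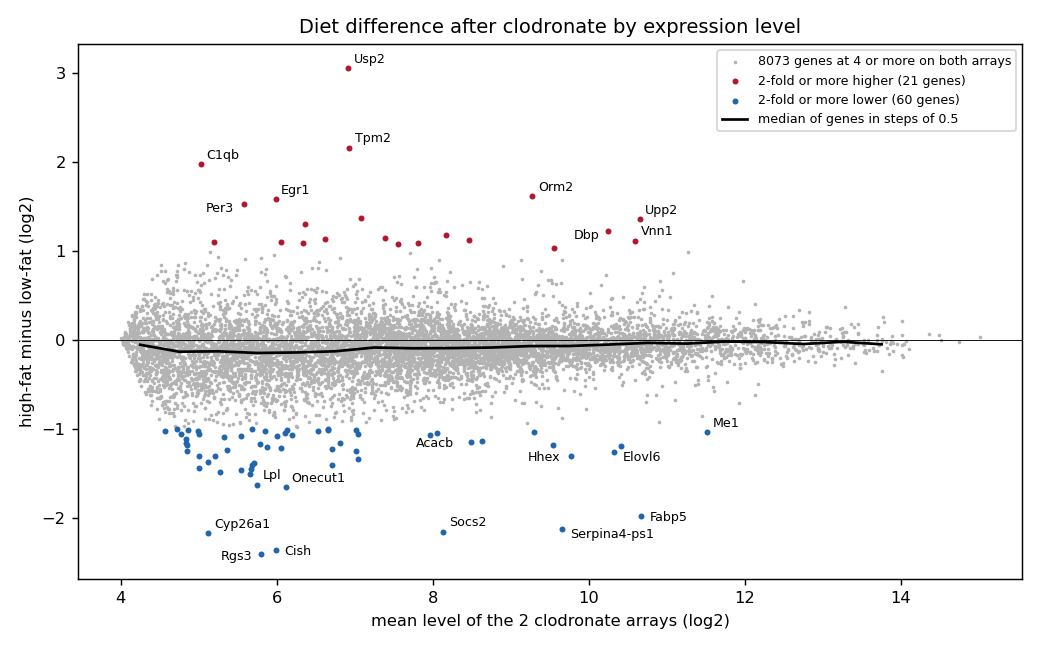
Difference between the high-fat and the low-fat clodronate array (log2) against the mean level of both arrays (log2) for the 8073 genes at 4 or more on both; red and blue points are the 21 genes 2-fold or more higher and the 60 genes 2-fold or more lower among them, and the line is the median in steps of 0.5. The median was -0.14 at mean levels from 5 to 6 and -0.04 at 10 or more, Usp2 is the highest point at 3.05, and Rgs3 and Cish are the lowest at -2.42 and -2.36.

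The enzymes that build fatty acids had lower transcript levels in the high-fat pool. Elovl6, which elongates palmitate, was at 10.95 in the low-fat and 9.69 in the high-fat pool, 2.40-fold lower, and at 10.89 and 9.69 with PBS. Acacb and Acaca, the acetyl-CoA carboxylases that commit carbon to fat, were at 9.06 and 7.91 (2.21-fold lower) and at 9.81 and 8.77 (2.05-fold lower). Me1, malic enzyme, which supplies NADPH, was at 12.03 and 10.99. These 4 were the members past 2-fold. In each of them the levels of both high-fat pools were below those of both low-fat pools. Me1 and Acaca were slightly under 2-fold after centring (-0.95 for each) and after quantile normalization (-0.99 and -0.98).

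Of the 28 lipogenesis genes with a probe set, all measurable, 23 were below 0 and 8 were 1.5-fold or more lower, against 4.88% of all genes. The other members past 1.5-fold were Acss2, which makes acetyl-CoA from acetate (11.88 and 11.02), Fasn, fatty acid synthase (12.27 and 11.56), Acly, ATP citrate lyase (12.44 and 11.82), and Pnpla3, a lipase of lipid droplets (4.64 and 3.29, at least 1.56-fold lower). Over the list, the median was -0.31, and -0.27 with PBS, and it was -0.25 after quantile normalization. By role, the 6 genes of acetyl-CoA supply and carboxylation had a median of -0.74, the 10 of synthesis, elongation and desaturation one of -0.28, and the 9 factors and regulators one of -0.13. Scd1, the main desaturase, differed by -0.35 and Elovl3 by -0.51. Srebf1, which encodes SREBP1c, was instead at 10.41 and 10.67, and Thrsp, a lipogenic cofactor, at 12.52 and 12.85. Mlxipl, which encodes ChREBP, was at 10.65 and 10.34, and its target Pklr, liver pyruvate kinase, at 10.10 and 9.22.

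Fatty acid oxidation genes lay slightly above 0. Vnn1, pantetheinase, a PPARα target, was at 10.04 and 11.15, 2.16-fold higher, and both of its probe sets were higher (1.11 and 1.32). Ppargc1b, a coactivator, was at 5.51 and 6.60 (2.13-fold higher). Cyp4a14, an omega-hydroxylase of fatty acids, was at 10.71 and 11.46, and Pparg, the receptor that drives fat storage, at 5.49 and 6.09. Of 47 measurable PPARα genes 32 were above 0, against 33.8% of all genes. At 1.5-fold or more 4 stood above and 3 below, against 1.72% and 4.88% of all genes. Ppara itself was at 11.15 and 11.47.

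The median of the PPARα list was 0.13 with clodronate and 0.26 with PBS, beside -0.09 and 0.00 over all genes. In the 16 genes of mitochondrial oxidation, 13 were above 0 with clodronate (median 0.09) and all 16 with PBS (median 0.26). In the 13 of peroxisomal oxidation 7 were above 0 with clodronate (median 0.15) and 12 with PBS (median 0.46). Acads, short-chain acyl-CoA dehydrogenase, was at 9.13 and 8.81 with clodronate and at 8.86 and 9.33 with PBS. Acot3, a peroxisomal thioesterase, was at 5.98 and 5.83 with clodronate and at 5.44 and 6.39 with PBS. In both genes the low-fat clodronate pool was above the low-fat PBS pool, and the high-fat clodronate pool below the high-fat PBS pool. Whether the diet differences differed between the injections was not tested.

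The 3 members of the list that were 1.5-fold or more lower were Pdk4, Ppargc1a and Fgf21. Pdk4, which blocks sugar oxidation, was at 6.29 and 5.62, and Ppargc1a, a coactivator of gluconeogenesis and oxidation, at 6.03 and 5.41. The other measurable probe sets of Ppargc1a ran from -0.57 to -0.07, and none of those passed 1.5-fold. Fgf21, a fasting hormone, was at 4.59 and 3.79, lower by at least 0.59. With PBS Pdk4, Ppargc1a and Fgf21 were at 6.67 and 5.42, at 6.08 and 5.16 and at 5.14 and 3.58. Cpt1a, which admits fatty acids to mitochondria, was at 10.66 and 10.90.

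Single genes of fat uptake and storage stood out from lists that otherwise lay near 0. Fabp5, a fatty acid binding protein, was at 11.65 and 9.68, 3.94-fold lower, and at 12.15 and 9.58 with PBS. Cd36, a fatty acid transporter, was at 9.04 and 10.07, 2.05-fold higher, and its 3 probe sets lay between 1.01 and 1.04. Fitm1, which partitions fat into droplets, was at 7.02 and 8.09 (2.11-fold higher). The uptake list (14 measurable genes) and the droplet list (15) had medians of 0.00 and 0.00. Plin2, the main droplet coat protein of liver, was at 12.10 and 12.09. Cidea and Mogat1, genes often raised in fatty liver, were at 2.28 and 3.90 and at 2.32 and 3.96, below 4 on both arrays and so not measurable. The lipase activator Abhd5 was at 7.87 and 7.11.

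Lpl, lipoprotein lipase, was at 6.57 and 4.94 with clodronate, 3.10-fold lower, and at 7.96 and 7.11 with PBS. Its other probe set was at 4.31 and 3.92, lower by at least 0.31, and Lpl was lower in both clodronate pools than in both PBS pools. Lipg, endothelial lipase, was at 4.95 and 5.74. Among 13 apolipoproteins 11 were below 0, against 66.2% of all genes, but 0 passed 1.5-fold. Their median was -0.04, against -0.09 over all genes, and 0 after quantile normalization. Apom, the carrier of sphingosine phosphate, was the lowest at -0.50. Pltp, which transfers phospholipids, was at 11.06 and 10.44, and Angptl8, an insulin-induced lipase inhibitor, at 8.82 and 8.22. Lepr, the leptin receptor, was at 6.83 and 3.32, at least 7.11-fold lower, and its other measurable probe set was lower by at least 2.14. With PBS it was at 6.30 and 3.39.

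Clock genes had the highest median of the 30 pathway lists. Usp2, a ubiquitin protease with a strong daily rhythm, was at 5.39 in the low-fat and 8.44 in the high-fat pool, 8.29-fold higher, and at 6.15 and 8.12 with PBS. Its other probe set was at 3.07 and 5.79, higher by at least 1.79. Per3 was at 4.82 and 6.33 (2.87-fold higher) and Per2 at 5.79 and 6.88 (2.13-fold higher). Both encode period proteins, which repress CLOCK and BMAL1.

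Dbp, a clock output factor that binds D-boxes, was at 9.63 and 10.85, 2.32-fold higher, and its relatives Tef and Hlf were at 7.84 and 8.59 and at 7.38 and 7.80. Ciart, a repressor of CLOCK, was at 2.65 and 5.08, at least 2.12-fold higher. Of 21 measurable clock genes 14 were above 0 and 8 were 1.5-fold or more higher, against 1.72% of all genes. The remaining members past 1.5-fold were Cry2, a cryptochrome (7.21 and 7.92), and Wee1, a clock-controlled kinase (5.02 and 5.73). Of the 7 members below 0, Clock differed by -0.41, Cry1 by -0.38 and Nfil3, which competes with Dbp at D-boxes, by -0.40. Among the 9 repressors Cry1 was the one below 0. Arntl, which encodes BMAL1, was below 4 in both pools and so not measurable. The median was 0.42 with clodronate and 0.37 with PBS. It was 0.28 with a floor of 5 and 0.29 over genes measured on both arrays. The labels give the light period, and the hour of tissue collection is not given in the sources used here.

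The start regions of Ciart and Per3 are printed because they hold, among the clock genes past 1.5-fold, more than 1 match to a clock motif within 1 window. They were chosen after the matches were seen, from RefSeq sequences of GRCm38.p6 that run from 250 bases before to 20 bases after the start, 5′ to 3′ on the gene's strand. Capitals mark the E-box CACGTG in Ciart (chr3:95882209-95882478, minus strand) at positions -116, -58 and -44 from the start, and the D-box TTANGTAA, on either strand, in Per3 (chr4:151044646-151044915, minus strand) at positions -205 and -158.
Ciart: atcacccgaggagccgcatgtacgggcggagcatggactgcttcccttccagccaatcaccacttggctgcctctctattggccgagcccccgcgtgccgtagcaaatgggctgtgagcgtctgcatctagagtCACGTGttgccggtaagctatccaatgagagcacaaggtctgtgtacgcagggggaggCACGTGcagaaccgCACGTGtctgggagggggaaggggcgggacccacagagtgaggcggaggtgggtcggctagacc
Per3: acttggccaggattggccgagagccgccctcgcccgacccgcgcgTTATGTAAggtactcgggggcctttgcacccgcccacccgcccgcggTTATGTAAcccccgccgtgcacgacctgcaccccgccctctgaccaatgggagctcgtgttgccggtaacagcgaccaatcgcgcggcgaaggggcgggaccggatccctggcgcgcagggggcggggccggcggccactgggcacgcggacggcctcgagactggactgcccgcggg
The E-box was present in 7.17% and the D-box in 2.29% of 32544 RefSeq start regions of 300 bases. These regions were distinct sequences, and the set did not cover every chromosome. Usp2 and Cry2 held none of the 10 motifs searched, which says only that these letters are not in their windows. A match is a description and not a site of binding.

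Genes downstream of growth hormone held some of the lowest differences of all genes. Cish and Socs2, which STAT5 induces and which shut the receptor's signal off, were at 7.17 and 4.80 (5.14-fold lower) and at 9.22 and 7.06 (4.47-fold lower). With PBS they were at 5.44 and 5.58 and at 8.12 and 7.74. In both genes the low-fat clodronate pool was the highest of the 4 and the high-fat clodronate pool the lowest, with the PBS pools in between. This order held in 45 of all 64 genes 2-fold or more lower. Serpina4-ps1, a pseudogene of the serpin family with male-biased liver expression, was at 10.71 and 8.59 (4.36-fold lower) and at 10.06 and 9.56 with PBS. Its 3 probe sets lay between -2.89 and -2.13 and those of Socs2 were -2.32 and -2.16. Signal shared with close serpin relatives could not be separated.

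The receptor and the main secreted target of growth hormone differed little. Ghr, the receptor, was at 12.28 and 12.41, Stat5b at 8.33 and 8.18, and Igf1, the main secreted target, at 12.05 and 11.95. Socs3, induced more by interleukin-6 than by growth hormone, was at 7.56 and 7.87. Of 30 measurable members 21 were below 0, as were 66.2% of all genes, and the median was -0.16. By 2-fold or more 4 were lower, against 0.755% of all genes, and 1 was higher, against 0.366%. The fourth lower gene was Cyp17a1, a steroid hydroxylase listed as female-biased (7.64 and 6.39, and 7.49 and 6.76 with PBS). The higher one was Cyp2b9, a female-biased cytochrome P450 (3.60 and 5.90, at least 3.72-fold, and 3.54 and 6.64 with PBS). Male-biased Ugt2b38 was at 6.41 and 5.77 and Hsd3b5 at 11.65 and 11.15, while Cyp2d9 was at 13.16 and 13.28. Of 15 female-biased genes with a probe set, 10 were not measurable in these male livers. Of the other 5, 2 were above and 3 below 0, with a median of -0.06. The 12 measurable male-biased genes had 4 above and 8 below 0, with a median of -0.19.

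The start region of Cish is printed because its gene had the largest gap in the list and because the window holds both copies of a STAT site, TTCNNNGAA, right after the start. It lies at chr9:107296409-107296678 on the plus strand of GRCm38.p6 (RefSeq), was chosen after the matches were seen, and has the STAT sites in capitals at positions 1 and 12.
Cish: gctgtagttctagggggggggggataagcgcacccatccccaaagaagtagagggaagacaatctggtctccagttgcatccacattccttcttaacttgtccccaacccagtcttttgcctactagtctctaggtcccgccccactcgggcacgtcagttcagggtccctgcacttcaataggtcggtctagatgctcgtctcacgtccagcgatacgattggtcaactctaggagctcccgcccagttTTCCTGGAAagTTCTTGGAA
This motif was present in 8.33% of the 32544 start regions. Of 49 list genes past 1.5-fold that were eligible, 39 had a start region among those searched, 3 of them held the STAT site and 25 held none of the 10 motifs.

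**Figure D3:**
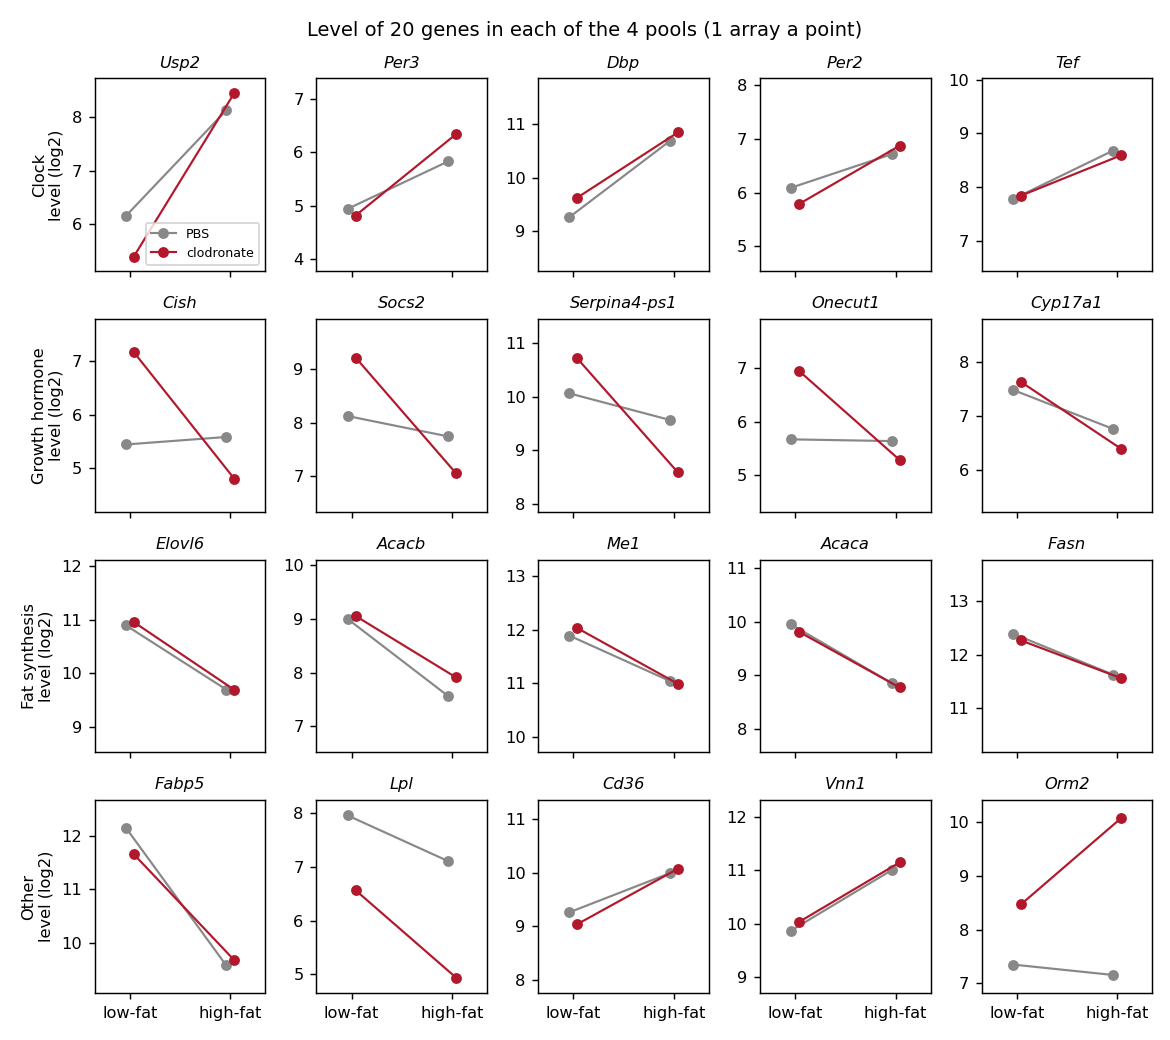
Level (log2) of 20 genes in the 4 pools, 1 array a point, low-fat on the left and high-fat on the right, with grey lines for PBS and red lines for clodronate; every panel spans the same range of log2 units, and Onecut1 stands in the growth hormone row though it is on the list of liver factors. The lines of the clock and fat synthesis genes run the same way with both injections. Those of Usp2, Per3 and Per2 are steeper with clodronate, and those of Dbp and Tef with PBS. In the growth hormone row all lines are steeper with clodronate, and that of Cish runs slightly upward with PBS (5.44 and 5.58). Orm2 differs between the diets with clodronate (8.47 and 10.08) but little with PBS (7.35 and 7.15).

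Several liver transcription factors had lower levels in the high-fat clodronate pool. Onecut1 (HNF6), a STAT5-responsive factor of hepatocyte identity, was at 6.94 and 5.28, 3.16-fold lower, and its other probe set was at 6.59 and 3.92, lower by at least 2.59. With PBS it was at 5.67 and 5.63. Foxa1 and Foxa2, pioneer factors of liver chromatin, were at 8.50 and 7.43 (2.10-fold lower) and at 9.18 and 8.31. Foxa1 was slightly under 2-fold after centring (-0.98) and after quantile normalization (-0.96). Hhex, a homeobox factor of liver development, was at 10.43 and 9.12 (2.47-fold lower), and Gata4 at 5.48 and 4.22. With PBS the levels were 8.16 and 7.86 for Foxa1, 8.45 and 8.73 for Foxa2, 9.83 and 9.76 for Hhex, and 5.14 and 5.06 for Gata4. In each of these 5 genes the low-fat clodronate pool was the highest of the 4 and the high-fat clodronate pool the lowest. The genes were named for their clodronate difference, which favours this order, and 45 of all 64 genes 2-fold or more lower had it. Core hepatocyte factors were near 0, with Hnf4a at 11.37 and 11.21 and Cebpa at 11.10 and 10.98. The list of 22 measurable nuclear receptors and liver factors had a median of -0.05, with 10 above 0 and 12 below. Hhex and Gata4 are not on that list and were taken from the genes past 2-fold after their values were seen.

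Sugar metabolism held few large differences. Pfkfb3, which makes the activator of phosphofructokinase, was at 6.48 and 5.28 (2.30-fold lower) with clodronate and at 5.20 and 5.63 with PBS. G6pc, the catalytic subunit of glucose-6-phosphatase, was at 11.36 and 10.43, and at 11.50 and 10.61 with PBS. Pck1, the gluconeogenic carboxykinase, was at 13.23 and 13.28. Of 30 measurable genes 23 were below 0, against 66.2% of all genes, and 3 were 1.5-fold or more lower, against 4.88%. The median was -0.09, as over all genes.

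Among insulin signalling genes, Irs1, an adaptor of the receptor, was at 8.92 and 8.34 with clodronate and at 8.72 and 8.87 with PBS. Trib3, an inhibitor of AKT, was at 4.34 and 5.06. FOXO1 targets went both ways. Bcl6, a repressor, was at 9.18 and 9.85, Sesn1, a stress sensor, at 7.67 and 8.26, and Foxo3 at 7.98 and 8.57. Other measurable probe sets of these genes differed by less, 0.53 for Bcl6, 0.45 for Foxo3, and 0.27 and 0.09 for Sesn1. Igfbp1, which insulin represses, was instead at 10.35 and 9.58.

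Acute phase genes, which hepatocytes express under interleukin-1 and interleukin-6, differed one by one. Orm2, an orosomucoid, was at 8.47 and 10.08 with clodronate, 3.06-fold higher, and at 7.35 and 7.15 with PBS, by its single measurable probe set. Its close relative Orm1 was at 13.72 and 13.59, and signal shared between them could not be separated. Saa1 and Saa2, serum amyloid A proteins, were at 10.77 and 11.76 and at 8.48 and 9.31, and at 9.97 and 10.81 and at 8.33 and 8.69 with PBS. Signal shared between Saa1 and Saa2 could not be separated either. Lcn2, lipocalin 2, was at 7.68 and 7.57 with clodronate and at 4.94 and 6.89 with PBS. Of 30 measurable members 13 were above 0, against 33.8% of all genes, and 3 were 1.5-fold or more higher, against 1.72%. The median was -0.07.

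Inflammatory mediators were mostly out of range. Il1b, Tnf, Il6 and Ccl2 were among 16 of 24 genes of the inflammation list that were below 4 in both clodronate pools, so the interleukin-1β transcript itself could not be compared. Cxcl1, a chemokine that attracts neutrophils, was at 7.27 and 8.36 (2.12-fold higher), and at 6.79 and 7.52 with PBS. Rela, a subunit of NF-κB, was at 8.91 and 8.19 with clodronate and at 8.42 and 8.66 with PBS. Il1r1, the interleukin-1 receptor, was at 7.62 and 7.64, and Nfkbia, the NF-κB inhibitor, at 11.33 and 11.35. Among interferon genes the chemokines Cxcl10 (4.25 and 4.89) and Cxcl9 (6.62 and 7.19) lay above 0. Of the 20 measurable members 11 lay below, against 66.2% of all genes.

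Immediate early genes went both ways. Egr1 was at 5.20 and 6.78, 2.99-fold higher, and at 5.84 and 6.48 with PBS. Fosl2 (5.23 and 4.22) and Gadd45g (7.16 and 6.16), a stress-induced growth arrest gene, were each 2.01-fold lower. They were under 2-fold after centring (-0.92 for each) and after quantile normalization (-0.86 and -0.87). Fos, Fosb, Myc and Atf3 were below 4. The 18 measurable members had a median of -0.17.

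Genes of the unfolded protein response lay near 0. Hspa5 (BiP) was at 12.98 and 13.12, Sdf2l1 at 6.50 and 6.93, Creld2 at 9.61 and 9.96, and Herpud1, of protein degradation, at 11.94 and 12.33. Of the 9 measurable sensors and factors 3 were above and 6 below 0, with a median of -0.03 that was 0.02 after quantile normalization. Ern1, the sensor IRE1, was at 9.53 and 8.82, Atf4 at 9.64 and 9.09, and Eif2ak3, the sensor PERK, at 7.22 and 7.27. Of 18 chaperones 12 were above 0 with a median of 0.09, of 43 members in all 24 were above 0 with a median of 0.04, and 1 passed 1.5-fold in each direction. These shares of 1 in 43 are near the background of 1.72% and 4.88%.

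Other hepatocyte pathways differed in single genes. Cyp7a1, which starts bile acid synthesis, was at 9.48 and 9.16 with clodronate and at 8.85 and 9.89 with PBS. Fgfr4, the receptor that represses it, was at 8.01 and 7.40, and Abcc3, which exports conjugates to blood, at 9.32 and 9.95. The 22 bile acid genes had a median of -0.03 and the 26 cholesterol synthesis genes one of -0.07, with Mvk, mevalonate kinase, the one gene past 1.5-fold (4.59 and 5.31). Another probe set of Mvk differed by -0.25, in the opposite direction. Of 20 measurable cytochromes P450 of drug metabolism 16 were above 0 (median 0.13), with Cyp1a2 at 11.65 and 12.31. Gstm2 and Gstm3, glutathione transferases whose family members can share probe signal, were at 10.19 and 9.58 and at 9.07 and 8.44. Of 31 genes of amino acid breakdown and the urea cycle 0 passed 1.5-fold, between -0.38 and 0.49.

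Cyp26a1, which degrades retinoic acid, was at 6.21 in the low-fat and 4.04 in the high-fat clodronate pool, 4.52-fold lower, and below 4 in both PBS pools (3.13 and 3.99). Its level was near or below 4 in the other 3 pools. The other 17 measurable retinoid genes lay between -0.49 for Rdh11 and 0.37 for Aldh1a1. Steap2, a metal reductase, was at 5.91 and 3.93, at least 3.75-fold lower, and Slc30a10, a manganese exporter, at 8.63 and 7.86. Hamp, hepcidin, was at 14.12 and 13.93, and Hamp2, its relative, at 11.54 and 11.23 with clodronate but at 11.68 and 12.71 with PBS.

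Outside these pathways, Rgs3, which switches off G protein signals, was at 7.01 and 4.59, 5.33-fold lower, and at 5.62 and 4.79 with PBS. Its other probe set differed by -0.55. Pik3cd, the leukocyte catalytic subunit of PI3 kinase, was at 3.96 and 6.41 by 1 of its 6 probe sets, at least 5.32-fold higher. With PBS that probe set was at 4.26 and 4.05, so its level was high in 1 pool. The other probe sets were below 4 in all 4 pools. Tpm2, a tropomyosin of muscle, was at 5.85 and 8.01 (4.46-fold higher) and at 5.93 and 7.91 with PBS. Another probe set differed by 2.13, the third was at 3.07 and 4.02, and the other muscle and fat cell markers with a probe set, among them Acta1, Ckm and Adipoq, were below 4 in all 4 pools.

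Upp2, uridine phosphorylase, was at 9.97 and 11.33 (2.56-fold higher) and Kcnk5, a potassium channel, at 6.39 and 7.76. Fen1, a flap endonuclease, was at 5.71 and 7.01, and its other probe set was below 4 in both pools (3.40 and 3.06). Fst, follistatin, which binds activins, was at 5.73 and 4.28 (2.72-fold lower), and of the activin subunits Inhba was at 4.60 and 3.89 and Inhbe at 6.71 and 7.39. Csad, of taurine synthesis, was at 11.01 and 9.81, and Slc25a30, a mitochondrial carrier, at 10.14 and 8.95 with 4 probe sets between -1.76 and -1.19. Acpp, an acid phosphatase, Mmd2 and Tff3, a trefoil factor, were 2.85-fold, 2.67-fold and at least 3.36-fold lower. Susd1, Fbxo30, Ptpn9 and Usp6nl were 2.65-fold to 2.81-fold lower, and the 4 probe sets of Fbxo30 ran from -1.47 to -0.22.

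The remaining genes among the largest differences included Hectd2os, an antisense transcript (7.58 and 8.76), and Ildr2, a membrane protein linked to liver lipid (6.82 and 7.96). Fam47e (6.06 and 7.19) and 1810055G02Rik (7.90 and 9.03) were higher by like amounts, and these 4 genes were 2.18-fold to 2.26-fold higher.

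Among genes below 4 in the low-fat pool, Sema3f, a semaphorin, was at 3.43 and 5.55 (at least 2.93-fold higher) and below 4 in both PBS pools (3.36 and 3.29). The other probe sets of Sema3f were below 4 in all 4 pools. Clec2h, a C-type lectin, was at 3.83 and 5.28, and Nmnat3, of NAD synthesis, at 3.92 and 5.14. Slc8a1, a sodium-calcium exchanger, was at 3.17 and 5.11, Arrdc2, an arrestin-domain protein, at 3.55 and 5.02, and Krt23, a keratin, at 3.56 and 5.00. These 5 were at least 2.01-fold to 2.43-fold higher.

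Among genes below 4 in the high-fat pool, Mpzl1, a cell surface glycoprotein, was at 5.59 and 3.85 (at least 3.01-fold lower). The bounds of Atg16l2, an autophagy gene, Mr1, which presents vitamin metabolites to T cells, Dbf4, an activator of replication, Borcs6, C1qtnf12 and Slc39a6, a zinc transporter, stayed under 2-fold. They ran from at least 1.74-fold lower for Slc39a6 to at least 1.96-fold lower for Atg16l2, from low-fat levels of 4.80 to 4.97.

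Ribosomal protein and respiratory chain genes lay below 0 by small amounts. All 13 ribosomal protein genes were below 0, from -0.35 for Rps6 to -0.08 for Rps2, with a median of -0.19, and -0.08 with PBS. Of 26 genes of oxidative phosphorylation 21 were below 0, with a median of -0.09, as over all genes. None of either group reached 1.5-fold. After quantile normalization the ribosomal median was -0.14 and the oxidative one -0.04.

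**Figure D4:**
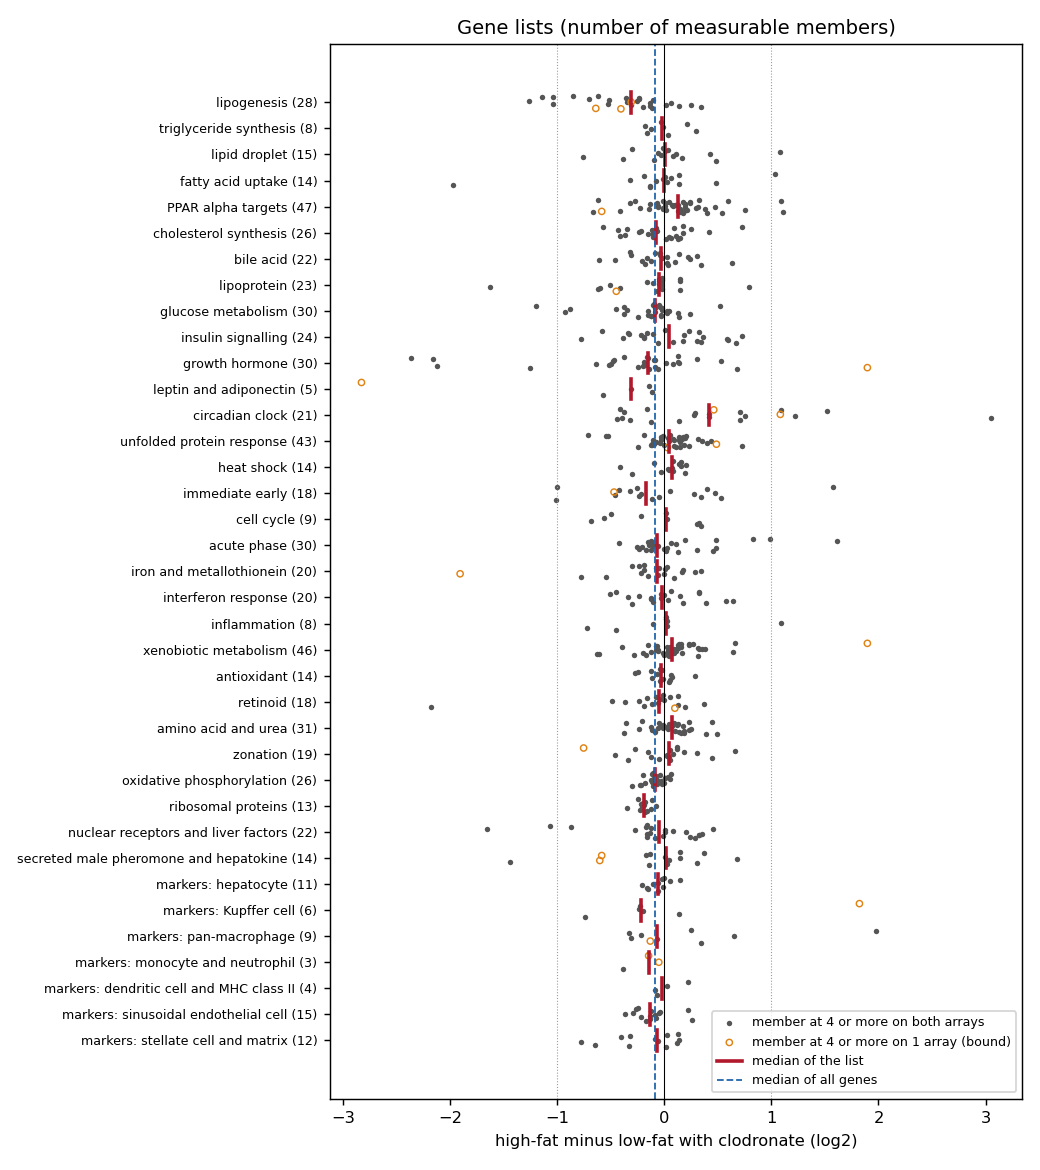
Difference between the high-fat and the low-fat clodronate array (log2) of each measurable member of the gene lists, 1 point a gene, with open circles for members below 4 on 1 array; the number after a list's name counts its measurable members. Red bars are list medians and the dashed line is the median of all genes at -0.09; the clock list has the highest median (0.42), and the lipogenesis list lies at -0.31.

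The diet differences of the depleted pools were set beside those of the PBS pools, which share no array with them. Of the 31 genes 2-fold or more higher with clodronate, 30 were measurable with PBS, 26 of these were higher there too, and 10 were 2-fold or more higher (32.3% of the 31). Of the 64 lower genes, 63 were measurable, 53 were lower with PBS, 14 of them by 2-fold or more (21.9% of the 64). Of all 8504 genes measurable with PBS, 50.3% were above 0 and 49.7% below. In that pair 29 genes (0.341%) were 2-fold or more higher and 29 (0.341%) lower. The median PBS difference was 0.74 over the 31 and -0.37 over the 64.

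The PBS differences of the lower genes covered a continuous range. Fabp5 differed by -2.57 with PBS, Elovl6 by -1.20, Lpl by -0.85, Rgs3 by -0.83, Serpina4-ps1 by -0.50 and Socs2 by -0.38. Those of Gata4, Hhex, Onecut1 and Cish were -0.09, -0.06, -0.03 and 0.14, and that of Pfkfb3 was 0.43, in the opposite direction. In 53 of the 64 genes the low-fat clodronate pool was the highest of the 4, in 54 the high-fat clodronate pool was the lowest, and in 45 both held. After quantile normalization the numbers were 52, 50 and 41. The genes were chosen on the clodronate arrays, so these counts are a description. Among the 31 higher genes, the high-fat clodronate pool was the highest in 24 and the low-fat clodronate pool the lowest in 18. Of the 64 lower genes 35 had a mean level under 6, as did 14 of the 31 higher ones. Where several probe sets of a gene were measurable, all of them had 1 direction in 12 of 12 higher and 24 of 26 lower genes, and the exceptions were Gpatch2 and Plxnb1.

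**Figure D5:**
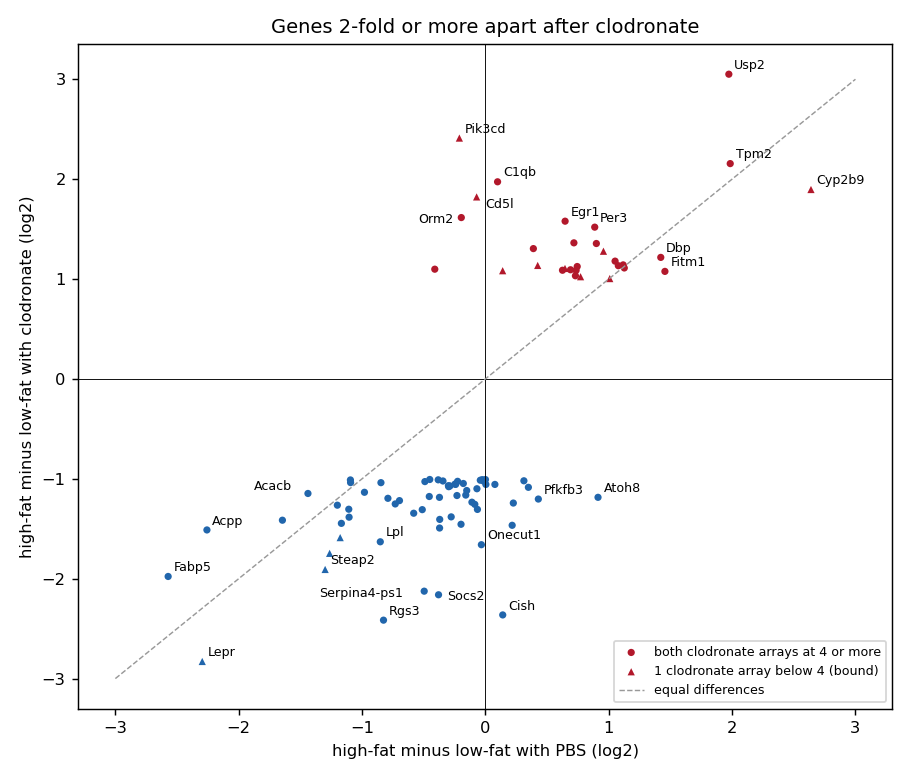
Diet difference with clodronate (log2) against that with PBS (log2) for the genes 2-fold or more apart with clodronate and measurable with PBS; triangles are bounds in the clodronate pair, and the dashed line marks equal differences. Usp2, Tpm2 and Dbp lie high and Fabp5, Lepr and Acpp low in both pairs, whereas Cish and Onecut1 at the bottom and Orm2, Pik3cd, C1qb and Cd5l at the top lie near 0 with PBS.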

How the data were processed

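Liver RNA of 36 mice was pooled by group and read on 4 Affymetrix arrays. The deposited log2 values came from the authors' use of GCRMA (version 2.24.1 per the submitters' processing notes), a method that subtracts background by probe sequence and normalizes arrays to each other; values far below 4 carry little signal. The raw scans were not used here. Probe sets were named through GEO's platform annotation; 34958 carried 1 symbol and 932 several, which were left out of the gene counts, and 10092 carried no single symbol. Where a gene had several probe sets, the one whose mean of the 4 arrays was highest stood for it. Values under 4 were set to 4, and high-fat minus low-fat was taken.

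Named genes were the 15 measured genes and the 10 bounds with the largest difference in each direction, list members past 2-fold or with the largest differences up to 6 a list, members needed to describe a pathway, and markers; exceptions are stated. Members and the 43 lists were chosen with earlier results of these data known. Start regions were searched for 10 motifs. Alternatives changed the scaling, the floor, the probe set of a gene and the filter. Calculations used Python 3.11.15, numpy 2.4.6, pandas 2.3.3 and matplotlib 3.10.9 and were tested on simulated data. The precision is limited by 1 array a group.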

Additional observations from a re-analysis of the deposited data

Results flagged for a closer look

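In 11 genes the diet difference was 1.5-fold or more in opposite directions with the 2 injections, and in each the difference between the injections was not tested, since every group was 1 pooled array. The log2 differences with clodronate and with PBS were -0.95 and 0.70 for Aptx, a DNA repair enzyme, and -1.19 and 0.91 for Atoh8, a helix-loop-helix factor. They were -0.75 and 0.74 for Lgr5, a receptor of Wnt signalling at the central vein, where both values are bounds (4.75 and 3.79 with clodronate, 3.94 and 4.74 with PBS). For Pla2g12a, a phospholipase, they were -0.65 and 0.77, the latter a bound (3.89 and 4.77), and for Ramp1, a partner of the calcitonin gene-related peptide receptor, -0.60 and 0.63. Med29, a Mediator subunit, had -0.75 and 0.66, and Supt6, an elongation factor, -0.61 and 0.59. Dph5, of diphthamide synthesis, had -0.64 and 0.79, and Tfpt, a chromatin remodelling subunit, -0.67 and 0.86, with 1 of its 3 measurable probe sets in the other direction with clodronate (0.07). The poorly described loci D130043K22Rik and Lppos had -0.95 and 0.95, and -0.65 and 0.61. All 11 were lower with clodronate and higher with PBS on the high-fat diet, and lower is also the direction of the median of all genes with clodronate (-0.09). After centring and after quantile normalization 5 of the 11 were 1.5-fold or more lower with clodronate, whereas Dph5, Lppos, Pla2g12a, Ramp1, Supt6 and Tfpt were under 1.5-fold, at -0.43 for Supt6 to -0.52 for Lppos after quantile normalization.

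Probe sets with no or several symbols entered no comparison above. Of 10092 such probe sets, 1835 were measurable in the clodronate pair, and 37 of these were 2-fold or more apart, 9 higher and 28 lower. With PBS 19 of 1803 were, 13 higher and 6 lower.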

How the results depend on the processing

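No paired analysis was possible because every group was 1 pooled array, and for the same reason no replicate could be left out. Counted over all probe sets with 1 symbol, 53 were 2-fold or more higher and 111 lower. The 64 lower genes became 42 after centring each array and 40 after quantile normalization. The other 12 of 16 recomputed counts stayed within 1.5 times. The clock median of 0.42 became 0.28 with a floor of 5 and 0.29 both with the median over probe sets and over genes at 4 or more on both arrays. The pan-macrophage median of -0.07 became 0.10 after quantile normalization, 0.14 with a floor of 3 and 0.091 over genes at 4 or more on both arrays. Of 259 recomputed list medians 242 moved by less than 0.1, and of 294 recomputed values of named genes 248 moved by less than 0.2. With the median over probe sets Usp2 was 2.42, Per3 1.25, Lpl -0.97 and Rgs3 -1.48, and with a floor of 5 C1qb was 1.02. The cause of the shift of all genes was not tested. Signal near background limits genes under a level of 6, which were 35 of the 64 lower and 14 of the 31 higher ones.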
